A study of Mus musculus with 49 samples.

Results

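Cholesterol and fatty acid synthesis genes were followed as a module of 31 genes, given by name and taken from the UMI count matrix by the Ensembl identifier of each symbol. All 31 were found among 46078 identifiers, of which 45143 could be given a gene name. The module held 19 sterol genes, which were 18 enzymes and the sterol carrier Stard4, 4 regulators (Srebf1, Srebf2, Insig1 and Insig2) and 8 fatty acid enzymes.

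The libraries came from an experiment on the dedifferentiation of mouse hepatocytes in culture, profiled by CEL-Seq2, a method that counts tagged 3′ ends of mRNA. There were 49 libraries in 16 conditions. All cells were wild type C57BL/6J, and hepatocytes were isolated from mice aged 10 weeks. Freshly isolated hepatocytes (FH, n = 3) were compared with hepatocytes kept in monolayer with EGF at 20 ng/mL. These were sampled at 3 h and at 1, 2, 4, 7 and 14 d (n = 3 at each time). In the label names the 3 h libraries carry partly other numbers than FH and the later times. Whether the 3 h libraries belong to the same series is not given. Hepatocytes cultured for 7 d with verteporfin at 0.3 µM, an inhibitor of Yap transcriptional activity, or with its solvent DMSO gave 2 libraries each. Both of these groups also had EGF at 20 ng/mL. Passaged dedifferentiated hepatocytes, named dediHeps, were sampled in monolayer with EGF at 20 ng/mL (n = 5) and as aggregates in low attachment wells (n = 3). They were also sampled as spherical organoids in Matrigel (dediHep-SO, n = 3) and as budding organoids after forced Cdx2 expression from a retrovirus (dediHep-BO, n = 3). CLiPs, which are liver progenitors induced from hepatocytes with small molecules (n = 3), spherical organoids of intestinal progenitors from E13.5 embryos (FIPC-SO, n = 3) and budding organoids from adult small intestine of mice aged 10 weeks (ISC-BO, n = 4) completed the set. Aggregates, organoids and CLiPs were grown in media other than that of the monolayers, so medium and culture form cannot be told apart. Forced Cdx2 and budding culture likewise went together in dediHep-BO, and the dediHep libraries were bulk cultures without cell sorting.

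Sterols and fatty acids are built from acetyl-CoA by 2 enzyme chains in the cytosol and endoplasmic reticulum. The transcription factors SREBP-2, encoded by Srebf2, and SREBP-1, encoded by Srebf1, drive the genes of both chains, SREBP-2 mainly those of cholesterol and SREBP-1c mainly those of fatty acids. INSIG proteins hold the SREBP precursors in the endoplasmic reticulum when sterols are plentiful, and Insig1 is itself an SREBP target. The liver is a main site of both syntheses, and in hepatocytes insulin and liver X receptors raise Srebf1 transcription.

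SREBPs bind sterol regulatory elements near transcription start sites, often beside sites for NF-Y and Sp1, so the promoters of the members were read from RefSeq sequence on GRCm38.p6, from 250 bases before to 50 bases after each start. A window was given for 25 members, and 6 members (Scd1, Scd2, Sqle, Fdps, Fdft1 and Stard4) had none. On either strand, TCACNCCAC, a form of the sterol regulatory element with 9 letters, was held by 1 of 25 members (4.0%) and by 1.44% of 27025 genes. CCAAT, the NF-Y letters, was held by 22 of 25 members (88.0%) and by 41.1% of genes. GGGCGG, the Sp1 letters, was held by 21 of 25 members (84.0%) and by 38.2% of genes. These are matches of letters and not measured binding, and the window leaves out elements farther from the start. Only exact matches were counted, so an element with other letters would be missed. The bases upstream of the annotated transcripts are shown for Hmgcs1, which held the sterol regulatory element match, and for Insig1 and Srebf2, the regulators whose log2 fold changes at 14 d lay farthest apart. They lie on the plus strand at chr13:119690101-119690350 for Hmgcs1, chr5:28071162-28071362 for Insig1 and chr15:82147019-82147180 for Srebf2. Capitals mark TCACNCCAC, CCAAT or ATTGG, its complement, and GGGCGG or CCGCCC, its complement, and no 2 marked matches overlap.
Hmgcs1: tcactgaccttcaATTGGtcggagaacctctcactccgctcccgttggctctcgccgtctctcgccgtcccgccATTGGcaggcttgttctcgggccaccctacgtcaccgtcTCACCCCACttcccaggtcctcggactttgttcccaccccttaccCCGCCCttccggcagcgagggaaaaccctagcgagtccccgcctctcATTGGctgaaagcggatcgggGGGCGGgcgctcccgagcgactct
Insig1: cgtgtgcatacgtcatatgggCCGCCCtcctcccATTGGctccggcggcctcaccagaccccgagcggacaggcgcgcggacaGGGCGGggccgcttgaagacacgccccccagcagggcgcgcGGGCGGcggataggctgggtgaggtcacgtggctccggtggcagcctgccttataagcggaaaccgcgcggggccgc
Srebf2: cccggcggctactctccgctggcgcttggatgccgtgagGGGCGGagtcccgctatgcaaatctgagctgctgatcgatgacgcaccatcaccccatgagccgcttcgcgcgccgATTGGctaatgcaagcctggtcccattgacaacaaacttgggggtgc

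Libraries held 861047 to 3872936 counts (median 1976760), and levels are given as CPM, a count scaled to library size by TMM over all 49 libraries. Counts of 3 corresponded to 0.7746 to 3.4841 CPM, which is the depth limit for members such as Scd2 in fresh cells. A 6-base UMI can tell apart at most 4096 molecules of a gene in a library. Among members Scd2 came closest to that limit with a highest count of 3964, followed by Scd1 with 3367, so their highest levels are understated. Hepatocyte markers (Alb, Ttr, Apoa1, Tat, Cps1 and Hnf4a) summed to 13120 to 16050 CPM in FH and to 982.3 to 1408 CPM at 14 d, and Alb was at 0 in every dediHep-SO, dediHep-BO and FIPC-SO library. The UMI limit also bears on these markers, whose sums reached 13874 counts in an FH library and 14258 in an aggregate library. High hepatocyte marker sums are thus understated, and so are their gaps to low ones. Endothelial, macrophage and stellate markers together were low in FH, the highest of these sums being 172 CPM for the stellate list. At 14 d endothelial markers summed to 2.43 to 8.01 CPM, macrophage markers to 2.29 to 40.55 and stellate markers to 22.9 to 137.7. In bulk RNA, fewer cells of a type and less RNA per cell cannot be told apart. Scaling by library totals in place of TMM raised the median log2 fold change of all genes against FH by 0.66 to 0.88 from 1 d on, and by 0.88 for dediHeps and 0.65 for aggregates, so every direction against FH is relative to the TMM median. The 8 comparisons with FH share the same 3 libraries. Among these, FH replicate 1 stood apart for several members, with Scd2 at 23.9 CPM against 5.22 and 2.99. Several calls that rest on it are named below.

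Summed over the 19 sterol genes, the level was 4711 ± 652 CPM in FH (SD, n = 3), 4393 ± 390 at 3 h, 2804 ± 328 at 1 d and 888 ± 180 at 14 d. The sum over the 8 fatty acid genes was 5403 ± 1803 CPM in FH, 5184 ± 464 at 3 h, 2680 ± 389 at 1 d and 1389 ± 131 at 2 d, and it then lay between 1292 and 1409 to 14 d. The sterol sum thus went on falling after 2 d while the fatty acid sum did not. The ratio of fatty acid to sterol sum passed from 1.13 ± 0.22 in FH through 0.492 ± 0.014 at 2 d to 1.56 ± 0.11 at 14 d. The UMI limit lowers the FH ratio. Corrected for UMI collisions, fatty acid and sterol sums in FH were 4365 and 3755, 10452 and 4818, and 5604 and 3854 CPM. At 14 d they were 1369 and 750, 1403 and 904, and 1000 and 594 CPM. So corrected, the ratios in FH and at 14 d overlapped. While the fatty acid sum stayed level, the mean of Scd1 was 484 CPM at 2 d and 27.2 at 14 d. That of Scd2 was 10.1 and 199.7, and that of Me1 364 and 635. Without Scd1 and Scd2, the fatty acid sum was 2176 ± 853 CPM in FH, 895 ± 18.7 at 2 d and 1145 ± 162 at 14 d. Levels in passaged dediHeps were again higher, at 2886 ± 998 CPM for sterol and 3288 ± 567 CPM for fatty acid genes (n = 5). ISC-BO held the highest sterol sum outside FH and 3 h, at 4166 ± 287 CPM (n = 4). Because Scd1 alone made up most of the fatty acid sum in FH, these sums are descriptions and were not tested.

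**Figure D1:**
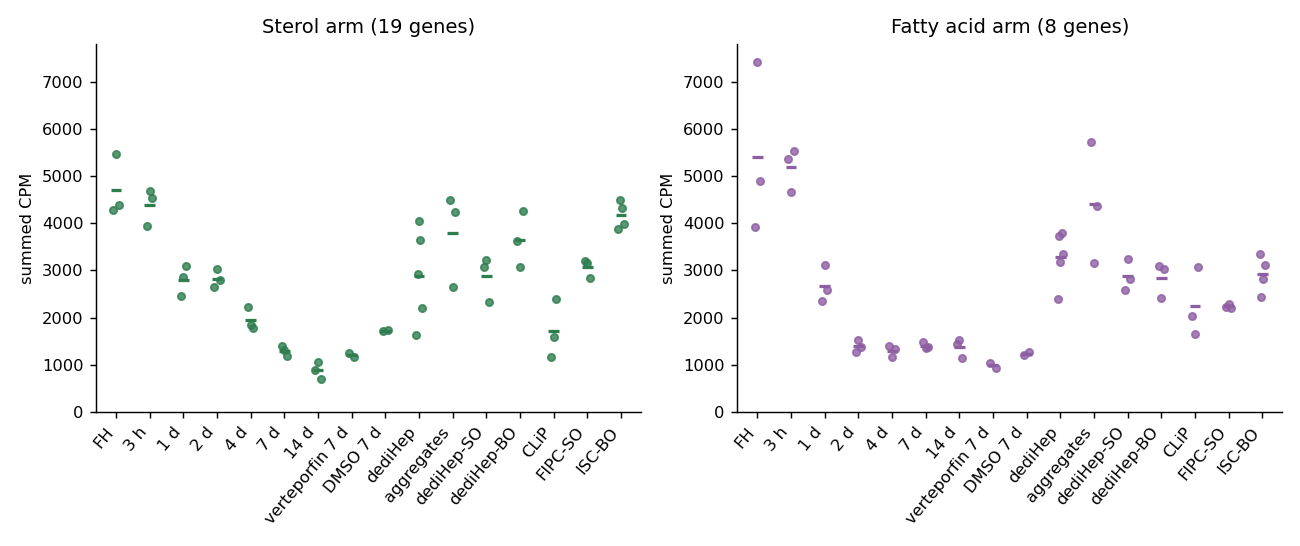
Summed CPM of the 19 sterol genes (left) and the 8 fatty acid genes (right) in every library (points) of the 16 conditions, with group means as short lines. The sterol sum falls from 4711 CPM in FH to 888 CPM at 14 d, whereas the fatty acid sum has reached 1389 CPM by 2 d and stays near it to 14 d, and both are higher in dediHeps, aggregates and organoids.

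Between FH and cultured hepatocytes the members changed in 1 direction for the most part. A gene was called changed where the edgeR quasi-likelihood test gave a false discovery rate (FDR) under 0.1 over all genes tested, and past the fold threshold where the log2 fold change was also over 2 in size. At 3 h, 2 members were higher and 4 lower, when 18.5% of 12443 genes changed, and without FH replicate 2, FH replicate 3, 3 h replicate 2 or 3 h replicate 3 the count was 2 or 3. At 1 d, 17 members were lower and 0 higher, against 22.2% of all genes lower and 39.9% changed. At 2 d, 19 were lower and 0 higher, against 23.1% lower and 44.3% changed. At 4 d, 23 were lower and 1 higher, against 23.5% lower and 47.0% changed. At 7 d, 26 were lower and 1 higher, against 23.5% lower and 49% changed. At 14 d, 26 were lower and 2 higher, against 27.6% lower and 55.6% changed, and 22 members passed the fold threshold, as did 29.5% of genes. The median log2 fold change of the members was -0.81 at 1 d, -1.17 at 2 d, -1.35 at 4 d, -1.89 at 7 d and -2.54 at 14 d, beside medians of all genes between -0.03 and 0.17. Scaled by library totals, the counts higher and lower were 2 and 5 at 3 h, 3 and 8 at 1 d, 2 and 13 at 2 d, 3 and 13 at 4 d, 4 and 18 at 7 d and 4 and 24 at 14 d. In all, 14 members were lower at each of the 5 times from 1 d to 14 d, 28 were lower at 1 time or more, and Mvd, Mvk and Srebf2 never were. The shares of all genes with these patterns were not counted, so these counts only describe the members.

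**Figure D2:**
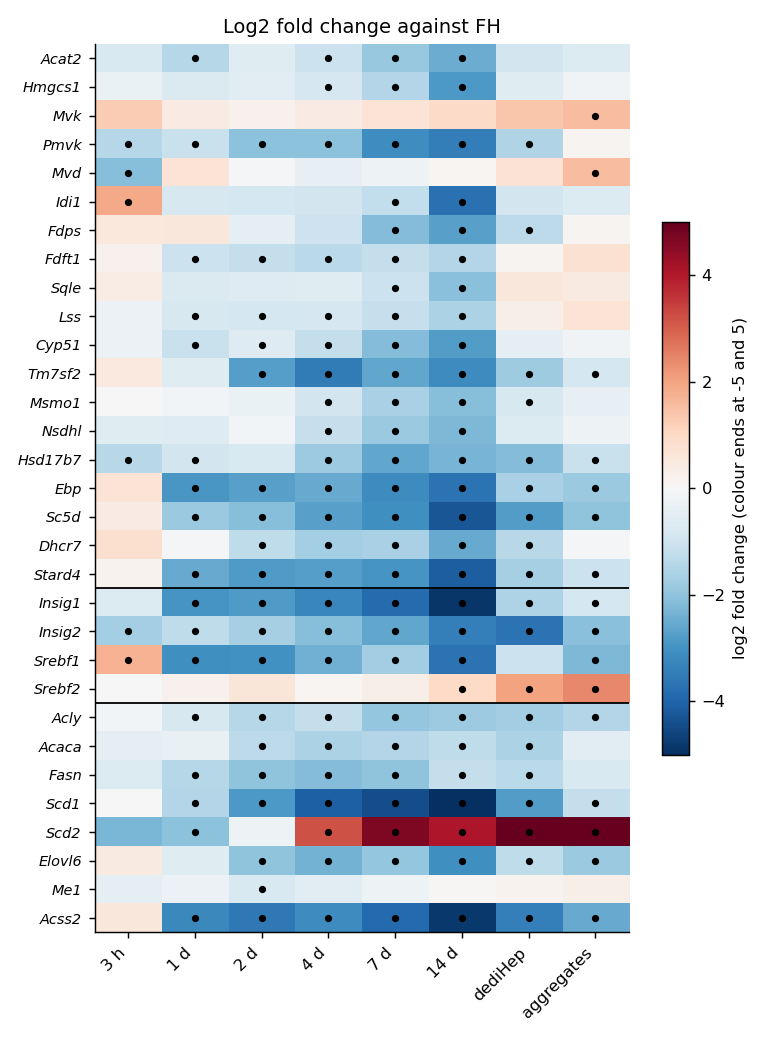
Log2 fold change against FH (colour, ending at -5 and 5) of each member (lines of the map, in the order sterol genes, regulators, fatty acid genes) at the 6 times of monolayer culture and in dediHeps and aggregates, with a dot where the edgeR FDR was under 0.1. Nearly all members are blue at 14 d, Scd2 is red from 4 d on, and Mvk, Mvd and Srebf2 have no blue dot after 3 h. Scaled by library totals, the values from 1 d on and in dediHeps and aggregates are higher by 0.65 to 0.88.

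In the sterol arm, 9 of 19 genes were lower at 1 d, 9 at 2 d, 14 at 4 d and 17 at both 7 d and 14 d, when 15 passed the fold threshold and the median log2 fold change was -2.54. The genes that were lower at every time from 1 d on were Pmvk, Fdft1, Lss, Cyp51, Ebp, Sc5d and Stard4, which act at several points along the pathway. Hmgcs1, which makes HMG-CoA at the head of the pathway, was at 590, 339 and 284 CPM in FH, at 237, 252 and 346 at 1 d, at 93.0, 239 and 146 at 7 d and at 51.1, 87.4 and 44.6 at 14 d. Its 1 d libraries overlapped with FH, and its 14 d libraries all lay below every FH library. The log2 fold change of Hmgcs1 was -0.71 at 1 d (SE 0.37, edgeR FDR = 0.148) and -2.87 at 14 d (SE 0.40, edgeR FDR = 3.52e-06). Sqle, the squalene epoxidase, stood at 171, 104 and 58.8 CPM in FH and at 29.7, 31.5 and 24.0 at 14 d, when it was lower (log2 fold change -2.11, SE 0.37, edgeR FDR = 6.62e-05). At 7 d the call for Sqle (-1.08, edgeR FDR = 0.0162) was lost without FH replicate 1 (-0.61, edgeR FDR = 0.168).

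Among the sterol genes the lowest log2 fold changes at 14 d were those of Sc5d, Stard4, Idi1 and Ebp. Sc5d, the sterol C5 desaturase, was at 529, 447 and 313 CPM in FH, at 141, 146 and 118 at 1 d and at 24.0, 28.5 and 20.6 at 14 d. The groups did not overlap from 1 d on, and the log2 fold change at 14 d was -4.28 (SE 0.38, edgeR FDR = 4.79e-09), a 19.4-fold lower level. Stard4, which carries cholesterol between membranes, was at 397, 275 and 463 CPM in FH, at 93.7, 66.6 and 61.1 at 1 d and at 24.0, 26.1 and 20.6 at 14 d. It was 5.75-fold lower at 1 d (log2 fold change -2.52, SE 0.37, edgeR FDR = 1.57e-05) and 17.6-fold lower at 14 d. Ebp, the sterol isomerase, was at 230, 465.5 and 217 CPM in FH, at 302, 734 and 403 at 3 h and at 45.6, 60.5 and 28.8 at 1 d. The drop of Ebp thus fell between 3 h and 1 d (log2 fold change -3.59, SE 0.46, edgeR FDR = 2.55e-06), and all 1 d libraries lay below all FH and 3 h libraries. Cyp51, the lanosterol demethylase, went from 457, 631 and 547 CPM in FH to 110, 94.0 and 53.8 at 14 d and had the smallest p in the arm after Sc5d and Stard4 (log2 fold change -2.81, SE 0.29, edgeR FDR = 4.99e-08). Tm7sf2, a sterol C14 reductase, was still at 95.5, 202 and 97.0 CPM at 1 d, overlapping with FH, and was at 35.7, 29.4 and 25.5 at 2 d.

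Idi1, the isopentenyl diphosphate isomerase, had a separate early course. It was at 45.7, 18.3 and 18.9 CPM in FH, at 57.4, 130 and 118 at 3 h, at 16.8, 16.3 and 20.2 at 1 d and at 2.25, 3.03 and 1.14 at 14 d. All 3 h libraries lay above FH, and the 14 d libraries, with 6, 5 and 1 counts, all lay below. Idi1 was higher at 3 h (log2 fold change 1.89, SE 0.57, edgeR FDR = 0.0346) and lower at 14 d (-3.73, SE 0.72, edgeR FDR = 0.00019), by -3.14 without FH replicate 1. Its call at 7 d (-1.24, edgeR FDR = 0.093) was lost without FH replicate 1 (-0.65, edgeR FDR = 0.433). Mvd, the mevalonate diphosphate decarboxylase, went the other way, with 41.3, 53.5 and 102 CPM in FH, 22.7, 15.2 and 7.49 at 3 h and 49.02, 94.6 and 210 at 1 d. It was lower at 3 h (log2 fold change -2.12, SE 0.72, edgeR FDR = 0.0571), rose from 3 h to 1 d (2.79, SE 0.71, edgeR FDR = 0.0033, or 2.09 without 1 d replicate 3), and at 14 d, with 91.6, 92.8 and 45.8 CPM, overlapped with FH. Mvk, the mevalonate kinase, was low throughout, at 1.09, 14.3 and 8.98 CPM in FH and 22.9, 12.1 and 16.03 at 14 d (log2 fold change 0.96, SE 0.57, edgeR FDR = 0.171). Fdps, the farnesyl diphosphate synthase, was at 8.70, 18.3 and 32.9 CPM in FH, at 31.8, 23.9 and 44.0 at 1 d and at 2.63, 4.25 and 3.43 at 14 d. Its call came late, at 7 d (log2 fold change -2.16, between -2.76 without 7 d replicate 1 and -1.57 without FH replicate 3) and 14 d (-2.70, SE 0.60, edgeR FDR = 0.000779). The remaining sterol genes (Acat2, Pmvk, Fdft1, Lss, Msmo1, Nsdhl, Hsd17b7 and Dhcr7) were lower at 14 d by 1.48 to 3.46 on the log2 scale. At 4 d the Nsdhl call (-1.17, edgeR FDR = 0.0617) was lost without FH replicate 2 (-0.39, edgeR FDR = 0.563). Of the 3 h calls in the module, those for Pmvk, Mvd, Idi1, Hsd17b7 and Srebf1 did not pass in every fit with a library left out, and only that for Insig2 did.

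Regulators split, with Insig1, Insig2 and Srebf1 lower at all 5 times from 1 d on and Srebf2 at none. Srebf1 was at 126, 49.6 and 35.9 CPM in FH, at 202, 271 and 231 at 3 h, at 8.60, 13.2 and 6.57 at 1 d and at 5.63, 4.85 and 8.01 at 14 d. Every 3 h library lay above every FH library, and every 1 d library lay below them. The fall of Srebf1 from 3 h to 1 d was -4.80 on the log2 scale (SE 0.69, edgeR FDR = 1.19e-05), a 27.9-fold lower level, while its rise at 3 h against FH (1.74, SE 0.60, edgeR FDR = 0.0627) was lost without any of 4 libraries (1.41 to 1.73, edgeR FDR = 0.124 to 0.23) and was 2.48 without FH replicate 1. At 7 d its libraries were spread over 3.36, 44.97 and 21.4 CPM, and without FH replicate 1 the log2 fold change passed from -1.74 to -0.99 (edgeR FDR = 0.216).

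Srebf2 was at 30.5, 28.7 and 77.8 CPM in FH, at 43.0, 59.5 and 76.3 at 1 d and at 88.6, 143 and 69.8 at 14 d, with 1 of the 14 d libraries below the highest FH library. Its call at 14 d (log2 fold change 0.99, SE 0.47, edgeR FDR = 0.0866) was lost without FH replicate 1, without FH replicate 2 and without 14 d replicate 2 (0.76 to 0.77, edgeR FDR = 0.246 to 0.259), and it was 1.61 without FH replicate 3. Insig1 was at 166, 196 and 234 CPM in FH, at 101, 156 and 113 at 3 h, at 28.4, 25.9 and 32.8 at 1 d and at 8.26, 9.10 and 4.58 at 14 d. Its levels in the culture libraries were below all FH libraries at every time, and the log2 fold change was -2.94 at 1 d (SE 0.31, edgeR FDR = 2.24e-07) and -4.85 at 14 d (SE 0.35, edgeR FDR = 1.93e-10). Insig2, the abundant form in liver, was at 606, 820 and 967 CPM in FH and already at 304, 212 and 225 at 3 h. Its log2 fold change was -1.68 at 3 h (SE 0.33, edgeR FDR = 0.00269) and -3.43 at 14 d, and no cultured library reached the FH range.

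**Figure D3:**
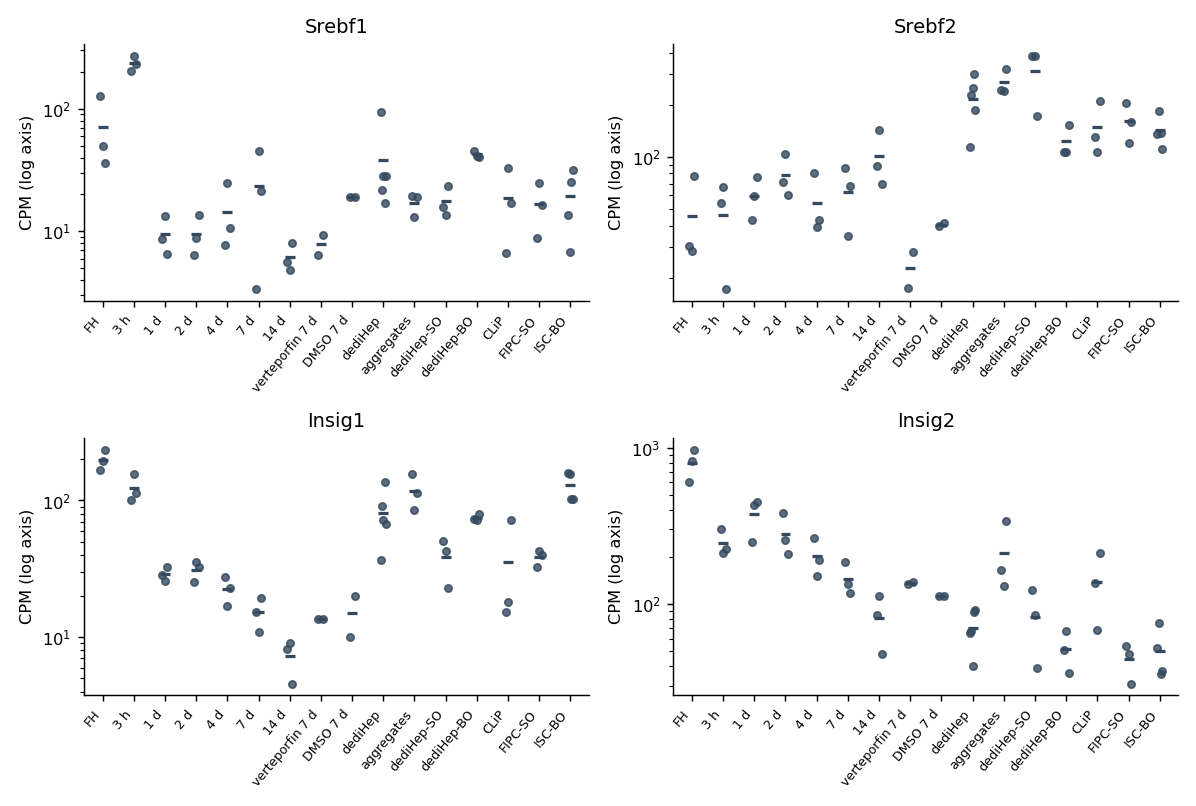
CPM of the regulators Srebf1, Srebf2, Insig1 and Insig2 in every library (points) of the 16 conditions on log axes, with group means as short lines. Srebf1 peaks at 3 h and is near 10 CPM at 1 d, Srebf2 is highest in dediHeps, aggregates and dediHep-SO, and Insig1 is lowest at 14 d.

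In the fatty acid arm, 5 of 8 genes were lower at 1 d, 7 at 2 d and 6 at each of 4 d, 7 d and 14 d, with Scd2 higher from 4 d on. Scd1, the stearoyl-CoA desaturase of liver, was the most abundant member in FH, at 2583, 4391 and 2674 CPM. It was at 3264, 3112 and 3458 CPM at 3 h, at 1084, 1712 and 1089 at 1 d, at 385, 608 and 459 at 2 d and at 182, 224 and 221 at 4 d. At 14 d it was at 36.8, 32.2 and 12.6 CPM. No culture library from 1 d on reached the FH range, and of the steps from 3 h on only that from 4 d to 7 d did not pass the test. The log2 fold change was -1.48 at 1 d (SE 0.34), -4.08 at 4 d (SE 0.37) and -7.01 at 14 d (SE 0.43, edgeR FDR = 1.44e-11), a 128.5-fold lower level, and with counts corrected for UMI collisions it was -7.78 at 14 d.

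Scd2, the paralog that is prominent in brain and in embryonic tissue, took the opposite course. It was at 23.9, 5.22 and 2.99 CPM in FH, at 2.39, 4.07 and 0 at 3 h, at 3.40, 7.65 and 19.3 at 2 d, at 43.3, 132 and 151 at 4 d and at 236, 198 and 165 at 14 d. All libraries from 4 d on lay above every FH library. The log2 fold change of Scd2 was 3.20 at 4 d (SE 0.69, edgeR FDR = 0.000757) and 4.06 at 14 d (SE 0.71, edgeR FDR = 6.05e-05), and the step from 2 d to 4 d was 3.46 (SE 0.66, edgeR FDR = 0.0025). These values rest on few FH counts (22, 4 and 3), and without FH replicate 1 they were 4.63 at 4 d and 5.49 at 14 d, while the step was 4.30 without 2 d replicate 3. Its lower call at 1 d (-2.05, edgeR FDR = 0.0583) rested on FH replicate 1, without which it was -0.61 (edgeR FDR = 0.703). As a share of the summed CPM of both desaturases, Scd2 made up 0.383% ± 0.463 in FH, 2.05% ± 1.73 at 2 d, 32.3% ± 11.5 at 4 d, 63.3% ± 6.6 at 7 d and 88.5% ± 3.8 at 14 d (SD, n = 3 each).

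**Figure D4:**
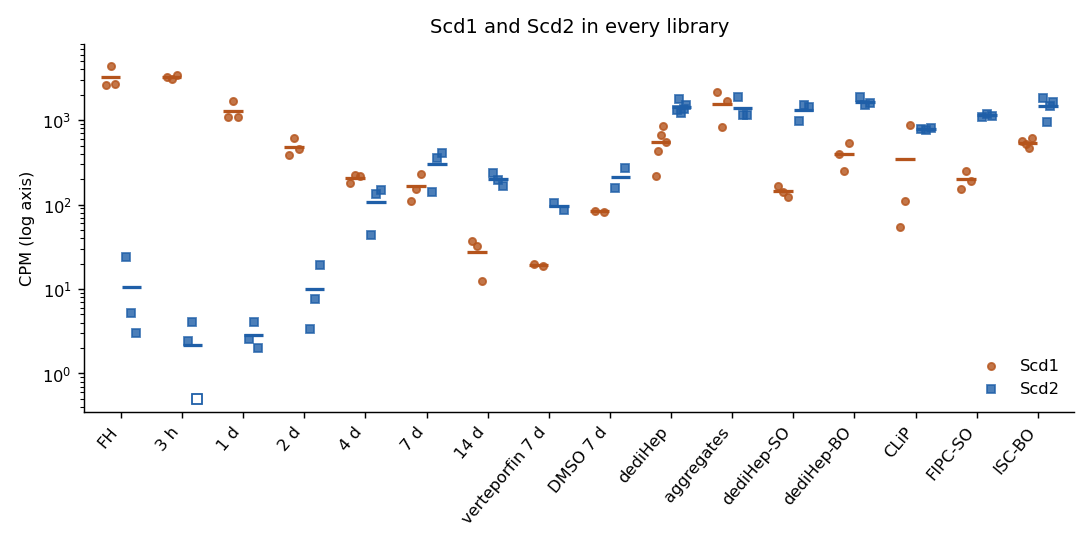
CPM of Scd1 (circles) and Scd2 (squares) in every library on a log axis, with group means as short lines and an open symbol at the bottom for the library with 0 counts. Scd1 falls from 3216 CPM in FH to 27.2 CPM at 14 d while Scd2 rises to 200 CPM, and Scd2 lies above 770 CPM in every dediHep, aggregate, organoid and CLiP library.

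Acss2, which makes acetyl-CoA from acetate, was at 175, 309 and 179 CPM in FH, at 212, 326 and 430 at 3 h and at 21.5, 33.0 and 24.3 at 1 d. It stayed below all FH libraries to 14 d, when the log2 fold change was -4.83 (SE 0.54, edgeR FDR = 1.42e-07), or -5.67 without 14 d replicate 3. Acly, the ATP citrate lyase, was at 390, 994 and 966 CPM in FH, at 461, 533 and 536 at 1 d and at 265, 287 and 191 at 14 d, below the FH range at 14 d (log2 fold change -1.80, SE 0.31, edgeR FDR = 4.55e-05). Fasn, the fatty acid synthase, was at 179, 569 and 461 CPM in FH, at 145, 72.3 and 76.5 at 4 d and at 210, 219 and 153 at 14 d. It was lowest at 4 d (log2 fold change -2.18, SE 0.47, edgeR FDR = 0.000727), and at 14 d its libraries again overlapped with FH (-1.19, SE 0.46, edgeR FDR = 0.0355), a call lost without FH replicate 2 or 14 d replicate 3 (-0.85 to -0.99, edgeR FDR = 0.144 to 0.171).

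Elovl6, which elongates palmitate, was at 153, 155 and 80.8 CPM in FH, at 66.2, 148 and 76.8 at 1 d and at 22.2, 13.3 and 14.9 at 14 d, with no overlap from 2 d on (log2 fold change at 14 d -3.07, SE 0.42, edgeR FDR = 3.03e-06). Me1, the malic enzyme that supplies NADPH, stood apart from its arm at 14 d. It was at 364, 888 and 391 CPM in FH and at 628, 720 and 559 at 14 d, within the FH range (log2 fold change 0.07, SE 0.33, edgeR FDR = 0.868). At 2 d, with 450, 348 and 294 CPM, Me1 was lower (-0.75, edgeR FDR = 0.0782), a call lost with counts corrected for UMI collisions (-0.63, edgeR FDR = 0.192) and without any of 6 libraries, and by library totals the value was 0.074. Acaca, the acetyl-CoA carboxylase of the cytosol, was lower from 2 d on, by 1.27 to 1.57 on the log2 scale. The hepatocyte marker sum fell over the same times as the members, to 5094 to 6478 CPM at 1 d, and at 14 d 6 of 6 hepatocyte and 4 of 4 endothelial markers were lower, while 3 of 3 cholangiocyte and 4 of 4 proliferation markers tested were higher. Of 3 stellate markers tested at 14 d, 1 was higher and 1 lower, and 0 of 3 macrophage markers passed. Cholangiocyte markers summed to 15.65 to 100.7 CPM in FH, 606.5 to 639.1 at 3 h, 122.7 to 300.5 at 2 d and 692.6 to 783.9 at 14 d. Their sum was thus high by 3 h and did not rise steadily. Proliferation markers summed to 10.97 to 54.38 CPM in FH and 584.6 to 934.1 at 14 d. The part of these markers in the results was not tested.

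Of the steps between neighbouring times, that from 3 h to 1 d held most of the calls. There, 16 members were lower and 1, Mvd, was higher, when 26.2% of genes were lower and 52.7% changed. In all 54.8% of members changed, near the share of all genes. By library totals 8 were higher and 8 lower. Without 1 d replicate 1 the count was 11. From 1 d to 2 d, 3 members were lower (Tm7sf2, Scd1 and Elovl6) and 7.68% of genes changed. From 2 d to 4 d, Scd1 was lower and Scd2 higher, with 3.60% of genes changed, and the Scd1 call did not pass without any of 5 libraries. From 4 d to 7 d, Cyp51 was lower (log2 fold change -0.97, SE 0.27, edgeR FDR = 0.0686), with 3.40% of genes changed, a call lost without any of 6 libraries. From 7 d to 14 d, 4 were lower (Hmgcs1, Idi1, Sc5d and Scd1), with 1.85% of genes lower and 2.89% changed. Without 7 d replicate 1 this last count was 11, of which 9 were lower, without FH replicate 1 it was 8, without any of 8 others it was 1 or 2, and only the Scd1 call (-2.57, SE 0.36, edgeR FDR = 0.000168) passed in every fit with a library left out.

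Verteporfin was compared with DMSO to see which genes differed when this inhibitor of Yap activity was present during dedifferentiation. Effects of the drug on Yap and on other targets cannot be told apart here. Of 30 members tested, 1 was lower and 0 were higher, when 0.375% of 10400 genes changed, and Dhcr7 was too low to test. Scd1 was at 19.9 and 18.7 CPM with verteporfin and at 83.9 and 82.9 with DMSO, a 4.33-fold lower level (log2 fold change -2.11, SE 0.30, edgeR FDR = 0.0302). The verteporfin libraries thus lay far below the DMSO libraries. With all 49 libraries in 1 fit the value was -2.14 and the call was lost (edgeR FDR = 1). With 1 library left out the count of changed members was 2 to 4, but such a fit leaves 1 group with a lone library that is assumed to vary like the other group, so it says little about stability. An unadjusted p under 0.05 was found for 15 of the 30 members and for 961 of 10400 genes. The median log2 fold change of the members was -0.61 beside -0.004 for all genes, and 26 members had a negative and 4 a positive value. Of all genes tested, 5245 had a negative and 5155 a positive value. In 19 of 31 members both verteporfin libraries lay below both DMSO libraries, as in 18.7% of genes, and in 2 members, Fdps and Insig2, they lay above, as in 21.3% of genes.

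Hmgcs1 was at 96.3 and 137 CPM with verteporfin and at 239 and 280 with DMSO (log2 fold change -1.16, SE 0.26, edgeR FDR = 0.169). Idi1 was at 1.93 and 3.73 CPM against 10.1 and 10.6 (-1.84, SE 0.54, edgeR FDR = 0.32), close to the counting limit. Sqle was at 61.6 and 44.2 CPM against 75.7 and 102. These sterol genes did not overlap between the groups, but none passed the adjusted test. Both regulators of the SREBP family were below DMSO, Srebf1 at 6.42 and 9.33 CPM against 18.9 and 18.9, and Srebf2 at 17.3 and 28.0 against 39.8 and 41.2. Insig1, at 13.48 and 13.7 CPM against 10.1 and 20.0, overlapped. Among fatty acid genes Scd2 was at 105 and 87.1 CPM against 157 and 271, Elovl6 at 8.99 and 13.1 against 22.7 and 17.8, and Acss2 at 20.5 and 12.4 against 40.4 and 39.5. These 3 showed no overlap either, whereas Me1, at 476 and 496 CPM against 454 and 484, and Acaca, at 33.4 and 19.3 against 34.1 and 19.5, overlapped. Fdps moved against its arm, at 108 and 31.1 CPM against 22.1 and 6.68 (log2 fold change 2.29, SE 0.64, edgeR FDR = 0.286). Summed sterol levels were 1201 ± 56.6 CPM with verteporfin and 1724 ± 25.5 with DMSO (SD, n = 2). Proliferation markers summed to 1439 to 1907 CPM with verteporfin and 1128 to 1186 with DMSO, and the hepatocyte marker sums overlapped (3079 to 3616 and 3239 to 3299). Cholangiocyte markers summed to 332.2 to 429.4 CPM with verteporfin and 238.5 to 261 with DMSO, no marker tested passed, and the part of the markers in these values was not tested.

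**Figure D5:**
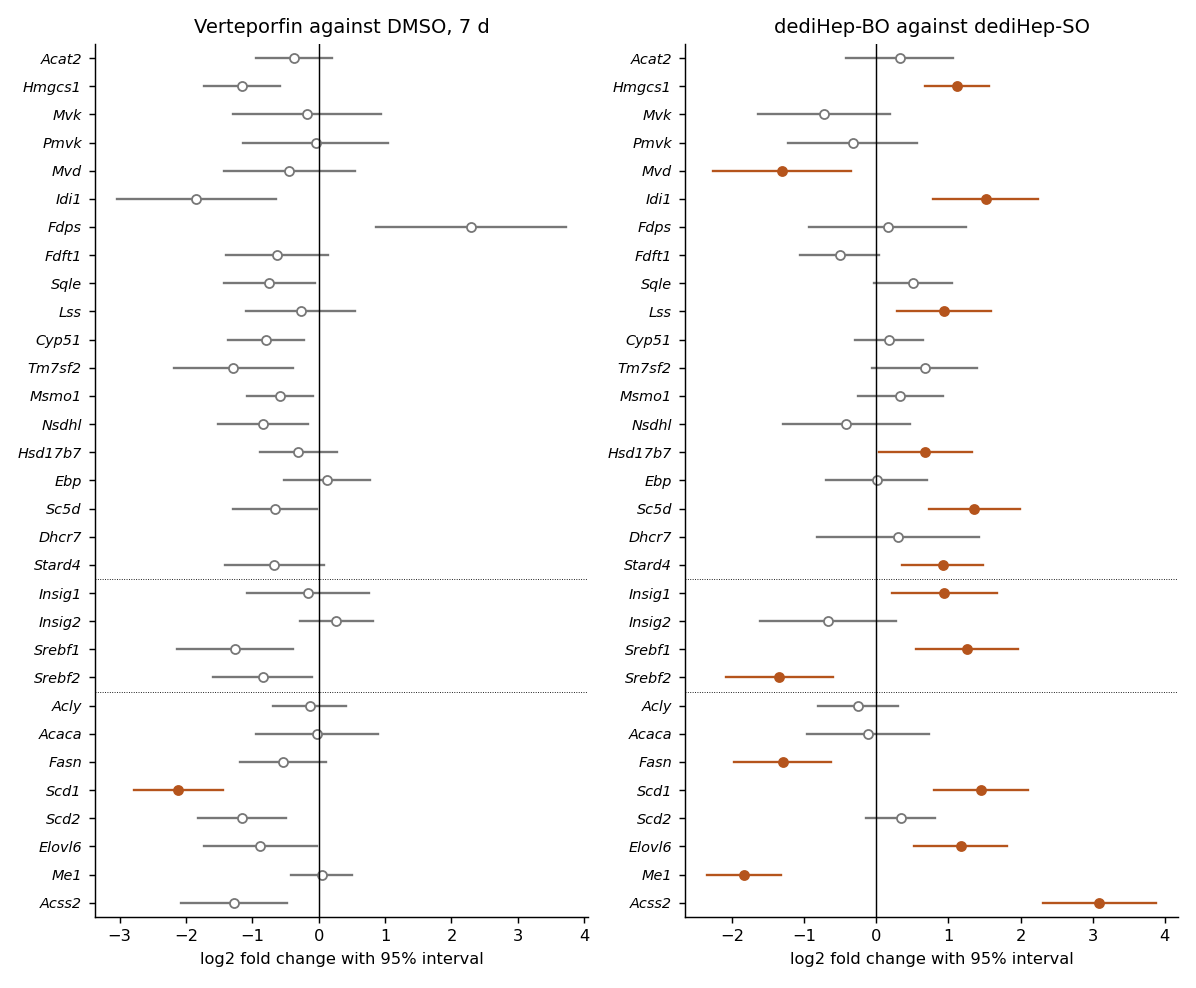
Log2 fold change of each member with its 95% interval for verteporfin against DMSO (left, 30 members) and dediHep-BO against dediHep-SO (right, 31 members), filled where the edgeR FDR was under 0.1 and open where it was not. With verteporfin most values lie below 0 and Scd1 alone is filled, while dediHep-BO has 11 filled values above 0 and 4 below.

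Passaged dediHeps were compared with FH to see what remained altered after passage. Of 31 members 17 were lower and 2 higher, when 22.7% of genes were lower and 45.1% changed, and by library totals 8 were higher and 7 lower. In the sterol arm 9 genes were lower (median log2 fold change -0.90), and in the fatty acid arm 6 were lower and 1 higher (-1.47). Sqle, at 127, 215, 278, 249 and 113 CPM, and Cyp51, at 200, 609, 669, 565 and 318, overlapped with FH, whereas Sc5d, at 54.5 to 90.4 CPM with a median of 67.1, remained lower (log2 fold change -2.79, SE 0.32, edgeR FDR = 5.06e-05). Scd1 was at 216, 435, 665, 863 and 558 CPM, below every FH library (-2.79, SE 0.40, edgeR FDR = 0.000258), and Scd2 at 1326, 1763, 1223, 1366 and 1500 CPM, far above FH (6.81, SE 0.70, edgeR FDR = 2.34e-05). This value was 8.27 without FH replicate 1 and 7.98 with counts corrected for UMI collisions, and FH held only 22, 4 and 3 counts. Scd2 stood far above all time course libraries. Srebf2, at 113, 229, 250.85, 301 and 186 CPM, lay above every FH library (2.02, SE 0.45, edgeR FDR = 0.00445, or 2.62 without FH replicate 3), and Insig2, at 40.4 to 91.6 CPM, lay far below (-3.71, SE 0.34, edgeR FDR = 1.04e-05). Srebf1 was at 94.7, 21.9, 28.1, 17.1 and 28.5 CPM, with dediHep replicate 1 within the FH range (-1.09, SE 0.63, edgeR FDR = 0.203). In dediHeps 6 of 6 hepatocyte markers were lower than in FH, and 3 of 3 cholangiocyte and 4 of 4 proliferation markers tested were higher, and their part in these results was not tested.

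Aggregates, which the study used to bring back hepatocyte features, had 4 members higher and 0 lower than dediHeps, when 12.2% of genes were higher and 24.4% changed. The 4 were Insig2, Scd1, Pmvk and Acaca. Of 31 members 27 had a positive log2 fold change, as did 5324 of 11265 genes. The median of the members was 0.45, beside -0.07 for all genes. Scd1 was at 2166, 821 and 1699 CPM in aggregates, with a higher level (log2 fold change 1.57, SE 0.42, edgeR FDR = 0.0329), with aggregate replicate 2 below the highest dediHep library. Insig2 was at 166, 131 and 339 CPM, above all dediHep libraries (1.63, SE 0.36, edgeR FDR = 0.0163). Only the Insig2 call passed in every fit with a library left out, that of Scd1 was lost without aggregate replicate 1 (1.22, edgeR FDR = 0.143), and the count was 7 without dediHep replicate 4 and 1 or 2 without any of 4 others. The 3 aggregate cultures were named as cultures that also gave a dediHep library, and with culture as a block 7 members were higher (Insig2, Pmvk, Dhcr7, Scd1, Tm7sf2, Hsd17b7 and Acss2), against 4 in the same 6 libraries without the block. Srebf1, at 19.3, 13.0 and 18.97 CPM, and Scd2, at 1886, 1163 and 1145, overlapped with dediHeps. Hepatocyte markers summed to 5955 to 9359 CPM in aggregates and 822.8 to 4067 in dediHeps, and proliferation markers to 6.961 to 95.38 and 360.8 to 1979. Cholangiocyte markers, 3 of 3 tested being lower, summed to 199.5 to 312.4 and 530.9 to 1369 CPM. The adipocyte list summed to 44.08 to 131.7 CPM in aggregates and 0 to 26.54 in dediHeps, where the lipid droplet gene Cidec was the 1 member tested and was higher (log2 fold change 2.905), while Adipoq, Plin1 and Lep were at 0 in every aggregate library. The part of these markers in the results was not tested.

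Against FH, aggregates had 12 members lower and 4 higher, when 19.7% of genes were lower and 35.7% changed, and by library totals 8 were higher and 6 lower. Scd2 (log2 fold change 6.83, SE 0.74, edgeR FDR = 9.45e-05), Srebf2 (2.41, SE 0.44, edgeR FDR = 0.00218), Mvd (1.56, SE 0.43, edgeR FDR = 0.0208) and Mvk (1.55, SE 0.63, edgeR FDR = 0.0938) were the higher members, and Scd2 was at 8.30 without FH replicate 1. Srebf2 stood at 244, 241 and 321 CPM, above all FH libraries. Lower members included Acss2 (-2.51, SE 0.55, or -3.18 without aggregate replicate 1), Srebf1 (-2.24, SE 0.54, or -1.46 without FH replicate 1), Insig2 (-2.07, SE 0.41) and Sc5d (-2.01, SE 0.39). Scd1 was still lower than FH (-1.19, SE 0.41, edgeR FDR = 0.0505), but not with counts corrected for UMI collisions (-1.18, edgeR FDR = 0.115). The Mvk call was lost without any of 5 libraries (1.03 to 1.804, edgeR FDR = 0.109 to 0.236) and was 2.17 without FH replicate 2.

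The move of dediHeps from monolayer into Matrigel was compared next. In dediHep-SO against dediHeps 1 member, Scd1, was lower and 0 were higher by edgeR, when 16.1% of genes changed. By the same test, an unadjusted p under 0.05 was found for 2 members and for 2914 of 11470 genes. Scd1 was at 168, 140 and 124 CPM in dediHep-SO, below all dediHep libraries (log2 fold change -1.89, SE 0.40, edgeR FDR = 0.0111). In the 6 libraries of cultures sampled in both forms the value was -1.56 (edgeR FDR = 0.0472), and with culture as a block it was -1.45 (edgeR FDR = 0.155). Srebf2, at 384, 380 and 172 CPM, reached its highest mean in dediHep-SO and overlapped with dediHeps. Hepatocyte markers, 4 of 4 tested being lower, summed to 103.4 to 132.6 CPM in dediHep-SO and 822.8 to 4067 in dediHeps, and cholangiocyte markers, 2 of 4 being higher, to 1918 to 2591 and 530.9 to 1369, and their part in these results was not tested.

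Budding organoids with forced Cdx2 differed from dediHep-SO in 15 members, 11 higher and 4 lower, when 19.2% of genes were higher, 21.3% lower and 40.5% changed in all. Acss2 was at 126, 79.5 and 125 CPM in dediHep-BO and at 11.0, 10.0 and 17.2 in dediHep-SO, an 8.55-fold higher level (log2 fold change 3.10, SE 0.35, edgeR FDR = 0.000246). It was the member with the widest gap and the only one past the fold threshold. Hmgcs1, at 556, 570 and 619 CPM against 264, 260 and 278, was higher by 1.12 (SE 0.20, edgeR FDR = 0.00316), and Idi1, at 39.0, 35.01 and 47.4 against 9.77, 16.6 and 16.3, by 1.52 (SE 0.33, edgeR FDR = 0.0081). Neither gene overlapped between the groups. Sc5d, Stard4, Lss and Hsd17b7 were the other sterol genes that were higher, and Mvd, at 81.6, 84.3 and 135 CPM against 422, 204 and 120, was lower (-1.31, SE 0.43, edgeR FDR = 0.0444, a call lost without any of 3 libraries, at -0.66 without dediHep-SO replicate 1), with dediHep-SO replicate 3 inside the dediHep-BO range.

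The regulators and fatty acid genes went both ways in this comparison. Srebf1 was at 45.6, 41.5 and 40.1 CPM in dediHep-BO and at 15.8, 13.55 and 23.5 in dediHep-SO (log2 fold change 1.26, SE 0.32, edgeR FDR = 0.0172), and Srebf2 at 107, 107 and 153 against 384, 380 and 172 (-1.35, SE 0.33, edgeR FDR = 0.015). The SREBP genes thus changed in opposite directions with no overlap in either. Scd1, at 399, 253 and 532 CPM, was higher by 1.45 (SE 0.29, edgeR FDR = 0.00584), and Elovl6, at 120, 76.5 and 122 against 42.2, 44.2 and 54.3, by 1.17 (SE 0.29, edgeR FDR = 0.0164). Me1, at 288, 188 and 256 CPM against 840, 1010 and 762, was lower (log2 fold change -1.84, SE 0.23, edgeR FDR = 0.000412), and Fasn, at 84.1, 61.8 and 87.9 against 261, 179 and 135, likewise (-1.30, SE 0.30, edgeR FDR = 0.0117). Neither Me1 nor Fasn overlapped, and both stood against Scd1, Elovl6 and Acss2 of the same arm. Without dediHep-SO replicate 3 the count of changed members was 23, with 14 higher and 9 lower. Of the intestinal markers (Vil1, Cdx1, Cdh17 and Fabp2) 3 of 4 were also higher in dediHep-BO, with sums of 1218 to 1575 against 392.9 to 435.3 CPM. Of the hepatocyte markers 4 of 4 tested were higher, with sums of 1225 to 1877 against 103.4 to 132.6 CPM, while Alb and Tat were at 0 in both. The same list summed to 1496 to 2012 CPM in ISC-BO, where 4 of 4 tested were higher than in FIPC-SO. A high sum of this list was thus not particular to cells derived from hepatocytes. Proliferation markers summed to 1725 to 2011 against 949.2 to 1285 CPM, cholangiocyte markers to 1148 to 1384 against 1918 to 2591, and stellate markers, none of them tested, to 4.31 to 202.7 against 0 to 0.6301. The part of these markers in the results was not tested.

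Intestinal organoids placed these levels beside cells of fetal and adult gut. In dediHep-SO against FIPC-SO 3 members were higher and 5 lower, when 23.5% of genes changed. Me1 was at 254, 189 and 268 CPM in FIPC-SO, below all dediHep-SO libraries (log2 fold change 1.86, SE 0.25, edgeR FDR = 0.00101), and Acss2 at 35.2, 50.6 and 65.3, above them (-1.99, SE 0.37, edgeR FDR = 0.00614). These 2 calls passed in every fit with a library left out and the other 6 did not, the count being 3 without any of 4 libraries. In dediHep-BO against ISC-BO 3 members were lower (Fasn, Acat2 and Dhcr7) and 0 higher, when 10.2% of genes changed, and the count was 0 or 1 without any of 4 libraries and 8 without ISC-BO replicate 4. In ISC-BO against FIPC-SO 5 members were higher and 0 lower, when 9.25% of genes were higher and 16.2% changed. Insig1 was at 159, 156, 102 and 102 CPM in ISC-BO and at 32.9, 43.0 and 40.1 in FIPC-SO (log2 fold change 1.68, SE 0.29, edgeR FDR = 0.00269). Scd1 was at 575, 524, 471 and 608 CPM against 155, 253 and 191 (1.38, SE 0.23, edgeR FDR = 0.00186). Both showed no overlap, and Tm7sf2 (1.52), Acss2 (1.36) and Fdft1 (0.79) completed the higher members. Me1 was low in both intestinal groups and in dediHep-BO, with no ISC-BO library above 211 CPM.

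CLiPs had 3 members lower than dediHeps (Hmgcs1, Scd2 and Elovl6) and 0 higher, when 1.85% of genes were lower and 4.69% changed. Elovl6 was at 7.69, 19.5 and 21.0 CPM in CLiPs, below all dediHep libraries (log2 fold change -1.996, SE 0.49, edgeR FDR = 0.065), and Scd2 at 793, 772 and 809, also below all (-0.90, SE 0.23, edgeR FDR = 0.0771). Hmgcs1 was at 48.7, 169 and 88.8 CPM (-1.64, SE 0.45, edgeR FDR = 0.0951). None of the 3 calls passed in every fit with a library left out, and without CLiP replicate 1 or dediHep replicates 2, 3 or 4 in turn the count was 0 or 1. The CLiP libraries were uneven, with Scd1 at 53.8, 110 and 877 CPM and the hepatocyte marker sum between 1281 and 5706 CPM. Macrophage markers summed to 70.66 to 148.8 CPM in CLiPs and 0.9646 to 10.49 in dediHeps, where Csf1r was the 1 marker tested and was higher (log2 fold change 4.59), while Adgre1 and Clec4f were at 0 in every CLiP library. Proliferation markers summed to 101.5 to 462.4 and 360.8 to 1979 CPM, with 0 of 4 passing, and the part of these markers in the results was not tested. The median log2 fold change of the members was -0.69, beside -0.03 for all genes. An unadjusted p under 0.05 was found for 11 members and for 1945 of 11567 genes.

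Across the 16 group means the sterol genes resembled each other more than the fatty acid genes did. Spearman's rho between pairs, computed on log2(CPM + 1) over 16 means that share depth and scaling and given as a description, had a median of 0.597 within the sterol arm, with 165 of 171 pairs positive. Within the fatty acid arm the median was 0.296, with 20 of 28 pairs positive, and between the arms it was 0.391, with 130 of 152 positive. Sqle and Lss were the most alike sterol pair (0.927), and Idi1 and Stard4 came next among the closest partners (0.924). In the fatty acid arm Scd1 was most like Elovl6 (0.738). Both had a closer partner in the sterol arm, Scd1 in Sc5d (0.903) and Elovl6 in Idi1 (0.918). Scd2 (median rho -0.003 with its arm) and Me1 (-0.065) had no partner above 0.4 in the fatty acid arm. Overlapping 3′ ends could affect some levels, since the last part of Fdft1 lies opposite Ctsb, that of Cyp51 opposite Akap9, that of Acss2 opposite Gss and that of Srebf1 opposite Rai1, and whether counting used strand is not given in the sources used here. The same holds for how reads shared by Acat2 and its close paralog Acat3 were assigned.

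Other genes of lipid metabolism were followed as a list of 25 that holds SREBP processing factors, further desaturases, glycerolipid enzymes and liver X receptor targets. At 14 d, 15 of 22 tested were lower and 4 higher than FH, when 27.6% of all genes were lower and 55.6% changed. Thrsp, a lipogenic protein of liver, was at 214.3 to 1307 CPM in FH and had at most 1 count in any 14 d library. The log2 fold change of Mlxipl, the carbohydrate response factor ChREBP, was -4.59, that of Nr1h3, the liver X receptor alpha, -4.79, and that of Fads2, a desaturase of polyunsaturated fatty acids, -4.64. The higher genes were Ggps1 (1.72), Mbtps1 (1.48) and Mbtps2 (0.65), the latter 2 encoding the proteases that release SREBPs, and Npc2 (1.17), a lysosomal sterol carrier. In aggregates against dediHeps 7 of 20 tested were higher and 0 lower, when 12.2% of all genes were higher and 24.4% changed, among them Nr1h3 (3.24) and Abca1 (2.53), a sterol exporter. In dediHep-BO against dediHep-SO 5 of 18 were higher and 2 lower, near the shares over all genes (19.2% and 21.3%), with Mlxipl at 3.65. With verteporfin 0 of 18 changed by edgeR, with 2 at an unadjusted p under 0.05, beside 961 of 10400 genes.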

How the data were processed

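Counts are UMI counts per gene that the authors deposited, made from CEL-Seq2 libraries with the celseq2 pipeline. The submitters' processing notes name bcl2fastq 2.20, Bowtie2 2.3.1, HTSeq 0.6.0 and GRCm38, and whether counting used strand is not given in the sources used here. No depth correction or pooling had been applied to the deposited counts. Libraries were grouped by their labels (49 libraries, 16 conditions, 861047 to 3872936 counts).

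The 31 members and the lists were chosen with earlier results of these data known. Ensembl identifiers were matched to symbols through a gene name table, and overlapping genes were read from the GENCODE annotation. Each comparison was fitted over all genes with edgeR 4.0.16 in R 4.3.3 (TMM scaling, filterByExpr with a minimum count of 10 and a minimum total of 15, quasi-likelihood F test, Benjamini-Hochberg adjustment, FDR under 0.1, and log2 fold change over 2 in size as the fold threshold). The time course with FH shared 1 fit of 21 libraries, and other comparisons used only their own groups. Standard errors and 95% intervals came from the F statistic. The fits of dediHeps against FH and of verteporfin against DMSO were checked on simulated counts, with 200 genes changed by 3 on the log2 scale. Of these, 94.5% and 100% were recovered, and 6.44% and 8.68% of calls were false. Smaller changes and a shift in scaling between groups were not simulated, so the check does not cover them. CPM, a unit computed here, used TMM over all libraries, and the depth limit of 3 counts covers counting error only. Alternatives were RLE scaling, library totals, no filter, DESeq2 1.42.0, correction for UMI collisions, replicate blocks, all libraries in 1 fit, an FDR under 0.05 and leaving out each library.

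Named genes were Hmgcs1, Sqle, Idi1, Fdps, Insig1, Srebf1, Srebf2, Acly, Fasn, Scd1, Scd2, Elovl6 and Me1, further members among the 3 smallest p of their arm or against most of it, and genes of the other lists. Culture names in the labels tie aggregates and dediHeps (correlation of deviations 0.183, 0.248 and 0.359), and tie dediHep-SO and dediHeps (-0.511, 0.0131 and 0.0482). Replicate numbers at 4 d and 7 d deviated together (0.638, 0.611 and 0.243). The labels do not say that replicates of a group came from separate animals, so p-values measure only the spread between libraries. A planned comparison of protein sequences was not made, since no protein table was used here.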

Additional observations from a re-analysis of the deposited data

Results flagged for a closer look

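Among 62 sets of member values in groups of 4 or more libraries, 4 held a library far from the others by Dixon's criterion, which chance gives in about 1 of 20. Hsd17b7 was at 295.9 CPM in dediHep replicate 4, when the next library was at 114.8 and the lowest at 64.6 CPM. Srebf1 was at 94.71 CPM in dediHep replicate 1, when the next was at 28.45 and the lowest at 17.09 CPM. Ebp was at 89.34 CPM in ISC-BO replicate 4, when the next was at 61.34 and the lowest at 55.66 CPM. Elovl6 was at 118.1 CPM in the same ISC-BO library, when the next was at 72.31 and the lowest at 64.09 CPM.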

How the results depend on the processing

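Counts of changed members kept within 1.5 times of the reported ones under most settings, with these exceptions, for which the cause was not tested. At an FDR under 0.05 the counts were 3 at 3 h, 1 from 2 d to 4 d, 0 from 4 d to 7 d, 1 from 7 d to 14 d, 2 in aggregates against dediHeps and 10 against FH, 4 in dediHep-SO against FIPC-SO, 1 in dediHep-BO against ISC-BO and 0 in CLiPs. By library totals they were 11 at 1 d, 1 from 2 d to 4 d, 2 from 4 d to 7 d, 8 from 7 d to 14 d and 2 in aggregates against dediHeps. Corrected for UMI collisions, 1 changed from 2 d to 4 d. With all 49 libraries in 1 fit they were 1 from 2 d to 4 d, 0 from 4 d to 7 d, 0 with verteporfin, 8 in aggregates against dediHeps, 2 in dediHep-SO against dediHeps, 4 against FIPC-SO, 1 in dediHep-BO against ISC-BO and 13 in CLiPs. By DESeq2 they were 2 from 4 d to 7 d, 3 with verteporfin, 6 in dediHep-BO against ISC-BO and 5 in CLiPs. Without the filter on low counts they were 7 from 7 d to 14 d, 5 with verteporfin and 5 in dediHep-BO against ISC-BO. By edgeR, the counts at an unadjusted p under 0.05 were 9 from 4 d to 7 d, 15 with verteporfin and 11 in CLiPs. Over all genes they were 1744 of 12443, 961 of 10400 and 1945 of 11567.

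With the replicate number as a block, 13 members changed with verteporfin (Fdps higher and 12 lower), 0 in dediHep-SO against dediHeps, 5 in dediHep-BO against ISC-BO, 3 in ISC-BO against FIPC-SO and 1 in CLiPs. These libraries share only a number, and for verteporfin the deviations of both pairs correlated at 0.445. With culture as a block, 7 members changed in aggregates and 0 in dediHep-SO against dediHeps. Where numbers paired the 4 d and 7 d libraries, the Cyp51 call remained under the block (-0.98, edgeR FDR = 0.0872).

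With 1 library left out, counts ranged from 2 to 9 at 3 h, 12 to 18 at 1 d, 16 to 21 at 2 d, 21 to 25 at 4 d, 24 to 27 at 7 d and 27 to 28 at 14 d. For the steps they ranged from 11 to 17 from 3 h to 1 d, 2 to 4 from 1 d to 2 d, 1 to 2 from 2 d to 4 d, 0 to 1 from 4 d to 7 d and 1 to 11 from 7 d to 14 d. They were 2 to 4 with verteporfin, 13 to 20 in dediHeps against FH, 1 to 7 in aggregates against dediHeps, 11 to 15 against FH, 1 to 2 in dediHep-SO against dediHeps, 12 to 23 in dediHep-BO against dediHep-SO, 3 to 10 in dediHep-SO against FIPC-SO, 0 to 8 in dediHep-BO against ISC-BO, 4 to 7 in ISC-BO against FIPC-SO and 0 to 3 in CLiPs.

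By library totals the sterol sum was 3165 CPM in FH, 2823 at 3 h, 2213 at 4 d, 1449 at 7 d, 1272 with verteporfin, 1873 with DMSO and 3693 in FIPC-SO, and the fatty acid sum was 3595 in FH, 3329 at 3 h, 1464 at 4 d, 1573 at 7 d, 1345 with DMSO and 2704 in FIPC-SO. Corrected for collisions, the sterol sum was 3844 at 3 h, 2622 at 2 d, 1121 at 7 d, 1022 with verteporfin, 1491 with DMSO and 2842 in FIPC-SO, and the fatty acid sum was 6632 at 3 h, 3159 at 1 d, 1169 at 4 d, 1316 at 7 d, 880.4 with verteporfin, 1100 with DMSO, 4502 in dediHeps, 3649 in dediHep-SO, 4554 in dediHep-BO, 2850 in FIPC-SO and 3851 in ISC-BO.

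Directions turned by library totals for Cyp51 (0.18) and Me1 (0.074) at 2 d, Lss (0.084) and Hmgcs1 (0.054) at 4 d, Acly (0.11) and Acat2 (0.084) from 3 h to 1 d, and Msmo1 in dediHeps against FH (0.10). With verteporfin, leaving out 1 library moved Mvd between -0.98 and 0.37, Acaca between -0.50 and 0.45, Acly between -0.39 and 0.078, Pmvk between -0.64 and 0.39, Ebp between -0.034 and 0.29, Lss between -0.77 and 0.094, Mvk between -0.67 and 0.50 and Insig1 between -0.54 and 0.39, none of which had passed the test. Depth limited members near 3 counts, such as Scd2 in FH and Idi1 with verteporfin.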
